A study of Mus musculus with 4 samples.

Results

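The replication-dependent histone genes are the clustered, mostly intron-less genes that supply the linker histone H1 and the core histones H2A, H2B, H3 and H4 during DNA replication. They were read in single-cell RNA profiles of livers from fetal and adult male mice whose mothers were controls (Ctrl) or carried an intrauterine hyperglycemia model (IHG), in which the fetus develops under high maternal glucose. The members are all genes whose symbol starts with Hist1h, Hist2h, Hist3h or Hist4h, which gave 67 of the 32285 genes in the count tables: 6 for H1, 18 for H2A, 18 for H2B, 12 for H3 and 13 for H4. Symbols alone decided which genes are members, though this gene family was chosen with earlier results of these data known. The 4 groups were Ctrl and IHG offspring at E18.5 (fetal) and Ctrl and IHG offspring at 8 weeks (adult), each with 1 library. Where 4 values are given for a gene below, the fetal pair comes before the adult pair, and within a pair Ctrl comes before IHG. Each library pooled material from 3 pregnant mice or 3 adults, and the labels give no strain. Livers were digested with an enzyme mixture and treated with an erythrocyte lysis buffer, and the adult livers had been perfused through the portal vein. With 1 library per group there was no test between groups: the 95% intervals below are exact Poisson intervals that cover counting error only, and cannot show how animals vary.

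Replication-dependent histone mRNAs are the known exception among animal mRNAs in that most of them end in a conserved stem-loop in place of a poly(A) tail. The stem-loop is bound by the protein Slbp, which takes part in their processing, translation and decay, and in dividing cells the genes are transcribed mainly in S phase, when new DNA has to be packed into nucleosomes. H1 binds the DNA between nucleosomes, while H2A, H2B, H3 and H4 form the nucleosome core. The libraries were made by 3′ capture on poly(dT), which needs a stretch of A, so the counts are of transcripts that carried a tail or an internal A run, and not of all histone mRNA. Fewer cells holding a transcript and less of it per cell are not separated in the summed counts.

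The stem-loop sequences are shown because they are what sets these mRNAs apart from others. The motif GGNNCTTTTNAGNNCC (N is any base, sense strand only) was found in the transcripts of 44 of the 67 members and in 72 of 21901 protein-coding genes (0.329%) of the GENCODE M21 annotation on GRCm38. It lay 21 to 58 bases after the stop codon. The 6 forms found are given 5′ to 3′ as DNA, with the 4 loop bases in capitals and an example gene for each.

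Hist1h2ap (chr13:21833029-21833044, minus strand): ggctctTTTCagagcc
Hist1h3e (chr13:23561903-23561918, minus strand): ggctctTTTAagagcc
Hist2h2ac (chr3:96220418-96220433, minus strand): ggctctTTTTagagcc
Hist1h4d (chr13:23581950-23581965, plus strand): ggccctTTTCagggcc
Hist1h4i (chr13:22040966-22040981, minus strand): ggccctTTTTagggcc
Hist1h4j (chr13:21735437-21735452, plus strand): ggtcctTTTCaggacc

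The Hist1h2ap form was shared by 26 members of H1, H2A, H2B and H3. The Hist1h3e form was shared by 6 members of H1, H2B and H3, and the Hist2h2ac form was found in that gene alone. All 11 H4 matches had other stems than these: 7 carried the Hist1h4d form, 2 the Hist1h4i form and 2 the Hist1h4j form. The other 23 members had no match in their annotated transcripts, among them Hist1h1b, whose annotated transcript ends at its stop codon.

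Runs of 8 or more A within the transcript are the second feature shown, because poly(dT) can prime on them. Only 7 of the 67 members had one, and these 7 held 48.3% of all member UMIs (unique molecular identifiers, 1 per captured transcript). Of the 52 members with a transcript of up to 1200 bases 4 had such a run (7.69%), against 3.60% of other protein-coding transcripts of that length. Each run lay after the stop codon. The windows of 30 bases on chromosome 13 are given with the run in capitals, for the 6 members whose letters differ.

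Hist1h2ap (chr13:21833036-21833065, minus strand): cccgaaaagAAAAAAAAAAAAggctctttt
Hist1h2ae (chr13:23570677-23570706, minus strand): tctaatctcgtAAAAAAAAcaaaggctctt
Hist1h2ac (chr13:23682646-23682675, minus strand): ctaggagAAAAAAAAAAAAAAAgttctatg
Hist1h2be (chr13:23584705-23584734, minus strand): gagacctggAAAAAAAAAAAtcagttccta
Hist1h2bc (chr13:23692470-23692499, plus strand): tcatgtaaagcAAAAAAAAtgcgtcatgtt
Hist1h1d (chr13:23557254-23557283, plus strand): tcatgtaatttAAAAAAAAtactgtaaagg

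In Hist1h2ap the run of 12 A was followed directly by the stem-loop, and Hist1h2ao (chr13:21810877-21810906, plus strand) had the same 30 letters. The runs of Hist1h2ae, Hist1h2ac, Hist1h2be, Hist1h2bc and Hist1h1d were 8, 15, 11, 8 and 8 bases long.

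Promoters are shown for the 2 members on which the comparison of IHG with Ctrl turned, as the 250 bases before the transcript start in RefSeq on GRCm38.p6. Of these, 218 are printed for Hist1h2ap, as GENCODE starts that transcript further upstream. Capitals mark 3 motifs. The TATA box was searched as TATAAA. The CCAAT box was searched as CCAAT, which reads ATTGG where it lies on the opposite strand. The H1 box, a motif known from linker histone promoters, was searched as AAACACA. These and the octamer ATTTGCAT, a motif known from H2B promoters, were searched on both strands.

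Hist1h1b (chr13:21780626-21780875, minus strand): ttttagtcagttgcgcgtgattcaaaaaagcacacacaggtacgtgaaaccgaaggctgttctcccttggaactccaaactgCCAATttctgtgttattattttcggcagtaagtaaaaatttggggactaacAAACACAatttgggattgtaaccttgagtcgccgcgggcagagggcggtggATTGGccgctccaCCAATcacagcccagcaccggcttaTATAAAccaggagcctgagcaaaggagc
Hist1h2ap (chr13:21833508-21833725, minus strand): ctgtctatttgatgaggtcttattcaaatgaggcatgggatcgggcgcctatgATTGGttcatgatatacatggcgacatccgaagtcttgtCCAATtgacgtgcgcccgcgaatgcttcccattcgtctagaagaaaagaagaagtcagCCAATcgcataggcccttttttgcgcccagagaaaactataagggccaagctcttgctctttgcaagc

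Hist1h1b had 1 TATAAA, 3 CCAAT and 1 AAACACA in its 250 bases, and Hist1h2ap had 3 CCAAT and none of the others. Of the 62 members with a RefSeq promoter, 82.3% held CCAAT, against 33.8% of all 32851 promoters of the same length. TATAAA was in 46.8% of members and 12.4% of all promoters, and ATTTGCAT was in 21.0% and 1.60%. CCAAT was in 18 of 18 H2A and 16 of 16 H2B promoters but in 3 of 12 H4 promoters. The octamer was in 7 of 18 H2A and 6 of 16 H2B promoters and in none of the H1, H3 and H4 promoters. AAACACA was in 5 of 6 H1 promoters and in 14.5% of all members, against 6.25% of all promoters. A match describes these letters only.

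The genes lie in 4 places on GRCm38. Chromosome 13 holds 54 members between 21715763 and 23934851, chromosome 3 holds 10 between 96219865 and 96270132, chromosome 11 holds 2 and chromosome 6 holds 1. A single exon was annotated for 63 of the 67. Many copies encode the same protein: the 13 H4 genes encode 1 protein, the 12 H3 genes 3, and 9 of the 18 H2A genes the same H2A. The transcripts are also alike. The median member had 59.8% of its stretches of 90 bases found in no other gene of the annotation, and 13 members had under 20%. For Hist1h2ap the share was 7.63%, for Hist1h2ao 7.16%, for Hist1h2ae 68.1% and for Hist1h1b 100%. How reads shared between copies were counted is not given in the sources used here, so values of single near-identical copies are uncertain, and sums by histone type are given beside them.

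The libraries held 77874423 and 105382968 UMIs (fetal Ctrl, IHG) and 17987173 and 19366065 (adult Ctrl, IHG), with medians of 6645, 9116, 2558 and 2235 UMIs per barcode. After filters 7594, 7925, 4951 and 6500 cells remained, and pairs of libraries shared 8 to 26 barcodes. Haemoglobin took 35.4% and 20.4% of the fetal UMIs and 0.000256% and 0.0110% of the adult ones. Cells were clustered without the histone genes and named from marker genes as erythroid-like, B-like and so on (the ending is left out below), and each named class held its own markers at 6.5 times or more the level in the other cells. A cluster that led with hepatocyte markers also held the platelet gene Pf4 at 1966 and 8087 CPM (UMIs of the gene per 1000000 UMIs of the same cells), and it was left out of the comparisons. Albumin mRNA was at 309, 451, 210 and 81.7 CPM, so these are mainly profiles of the blood and immune cells of the liver, not of hepatocytes.

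Histone mRNA was most abundant in the fetal libraries. The 67 members together made 5615 and 4125 CPM in the fetal Ctrl and IHG libraries and 1796 and 2128 CPM in the adult Ctrl and IHG libraries, from 437231, 434700, 32301 and 41209 UMIs. Both fetal libraries were above both adult ones. Age, depth, the perfusion of adult livers and the mix of cell classes cannot be told apart in this order. Of the 67 members, 65 had at least 1 UMI. The 2 at 0 in all libraries were Hist1h2ba and Hist1h2aa, which are known from the testis. Hist1h2bq, Hist2h2aa2 and the testis H1 gene Hist1h1t had 2, 8 and 42 UMIs in all, and these 3 were picked out after their values were seen.

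The histone types kept different orders by library. H2A made 2847, 1490, 338.6 and 506.1 CPM, and H1 made 1028, 1395, 574.5 and 645 CPM. In fetal IHG, H1 was thus above its fetal Ctrl level while H2A was below, and in the adult libraries both were higher in IHG. H2B made 880.3, 659.5, 491.1 and 509.1 CPM. H3 made 312.8, 190.6, 116.7 and 140.0, and H4 made 546.8, 389.9, 274.8 and 327.7. All of H2B, H3 and H4 were lower in fetal IHG than in fetal Ctrl and slightly higher in adult IHG than in adult Ctrl. The mix of cells also differed between libraries: the fetal B class held 2417 cells in Ctrl and 1020 in IHG. The part of this mix, and of the unequal haemoglobin, in the library values was not tested.

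A few genes carried most of the signal, and the 12 with the most UMIs held 78.5% to 84.3% of each library's member UMIs. Hist1h2ap, an H2A gene, held 26.5% of all member UMIs, with 1885, 908.6, 140.1 and 269.7 CPM. Hist1h1b, a linker histone gene, was at 359.4, 672.4, 79.17 and 78.07. The former was highest in fetal Ctrl and the latter in fetal IHG. Hist1h2ae, another H2A gene, was at 634.3, 354.5, 94.73 and 111.0. The H2B gene Hist1h2bc was at 410.2, 418.9, 363.3 and 370.8, and was thus the most even of these across libraries. The linker histone gene Hist1h1c was higher in the adult libraries, at 160.3, 205.4, 296.4 and 315.1. A further linker histone gene, Hist1h1e, was at 329.7, 370.7, 146.7 and 194.6. Among the H4 genes, Hist1h4d was at 186.1, 146.0, 48.53 and 60.98, and among the H3 genes Hist1h3e was at 66.74, 50.07, 30.97 and 43.17. The fetal values of both were above the adult ones. Counts of 3′ libraries do not scale with transcript length, so these levels order the genes by captured transcripts only.

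**Figure D1:**
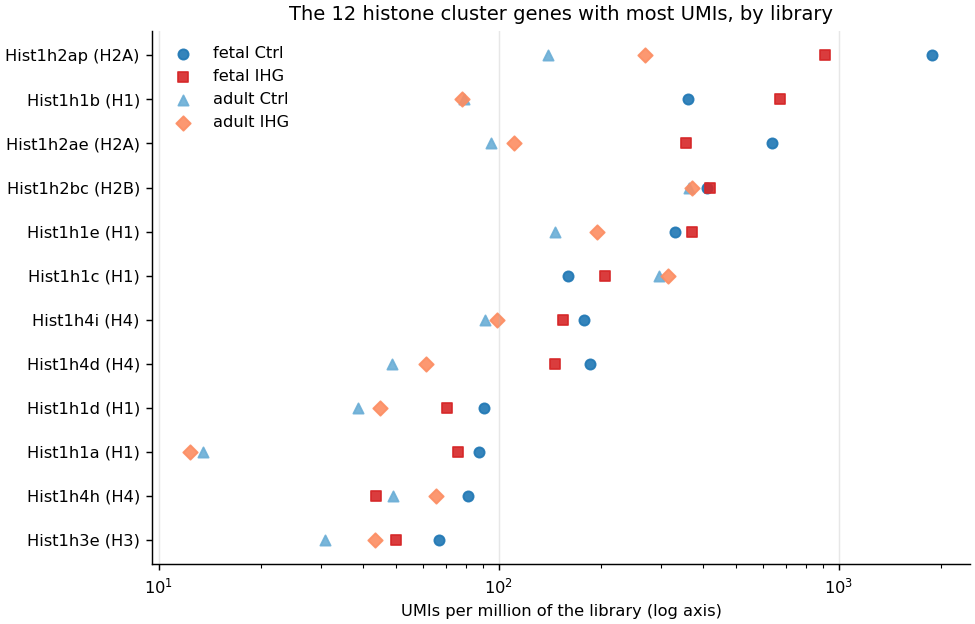
CPM (log axis) of the 12 members with the most UMIs, 1 point for each of the 4 libraries. Hist1h2ap spans 140.1 to 1885 across the libraries, while Hist1h2bc spans 363.3 to 418.9.

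To read the genes against cell division, each cell was classed from 34 genes of S phase and 42 of G2 and mitosis, none of them a histone gene. A cell counted as high for a list with at least 10 UMIs per 10000 and at least 2 UMIs from it, and as cycling if it was high for either. Of the cells of each library, 16.2% to 29.5% lay within a factor of 2 of that threshold for a given list. A member was called higher or lower at a fold of 2 or more with at least 20 UMIs over both groups, and the share of all genes called by the same rule is given as the background.

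Cycling cells held more histone mRNA than non-cycling cells in all 16 pairs of library and cell class compared, though by little in adult B cells, where the direction in Ctrl turned under 4 other settings. In fetal Ctrl B cells the 67 members made 13013 CPM in 1683 cycling cells and 3483 in 734 non-cycling cells, a log2 ratio of 1.90 (95% interval 1.86 to 1.94). In fetal IHG B cells they made 10549 in 618 cells against 4033 in 402 cells, a log2 ratio of 1.39. Of the members tested, 50 of 62 were called higher in cycling Ctrl B cells (background 10.1%) and 37 of 57 in IHG B cells (background 11.2%). The members' median log2 ratios were 2.56 and 1.45, and those of all genes -0.29 and -0.18. Fetal B cells thus had the highest histone level of the classes compared, in cycling and in non-cycling cells.

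Fetal neutrophils showed the same order from a much lower base. The members rose from 601 to 3565 CPM between non-cycling and cycling Ctrl neutrophils, and from 678 to 4941 in IHG. There, 45 of 49 members (background 31.8%) and 46 of 51 (background 23.4%) were called higher. The members' medians on the log2 scale were 3.32 and 3.76, against 0.32 and 0.20 for all genes. A neutrophil cluster of 154 Ctrl and 50 IHG cells had a median haemoglobin share of 31.1%, and its part in these values was not tested. Fetal monocytes went from 1166 to 4519 CPM in Ctrl and from 1414 to 5499 in IHG. Of their members, 28 of 38 (background 16.6%) and 33 of 42 (background 16.8%) were called higher. A further 2 classes could be compared in fetal IHG alone: 11 of 17 members were called higher in cycling macrophages (background 7.76%) and 8 of 9 in cycling endothelial cells (background 5.05%), with sums of 2174 against 686 and 1957 against 291 CPM. The IHG macrophage class also held Pf4 at 1521 CPM, and the part of other cells in its values was not tested.

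In erythroid cells the contrast was as wide but stood on a moving background. The members went from 710 to 5035 CPM in Ctrl and from 938 to 4556 in IHG. Haemoglobin took 83.9% and 79.0% of the UMIs of the 157 and 161 non-cycling cells, and 52.5% and 35.5% in the 2942 and 2510 cycling cells. As all other genes share what haemoglobin leaves, the median of all genes was itself 1.22 and 1.72 higher on the log2 scale in cycling cells. The members' medians were 2.77 and 2.73, with 49 of 62 called higher in Ctrl (background 54.5%) and 45 of 62 in IHG (background 63.7%). With so high a background these counts say little about the members, and the sums by type below are to be read against the median of all genes.

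In the adult liver the contrast was clear in T cells and small in B cells. Cycling T cells made 5001 CPM against 978 in Ctrl (log2 ratio 2.35, 95% interval 2.30 to 2.41) and 6376 against 1063 in IHG (log2 ratio 2.58). There, 40 of 49 members (background 12.7%) and 36 of 51 (background 11.9%) were called higher. Cycling NK and innate lymphoid cells made 3156 against 1871 in Ctrl and 3166 against 1839 in IHG, with 13 of 32 (background 5.30%) and 12 of 34 members (background 5.53%) called higher. Adult B cells made 2264 against 2197 in Ctrl, a log2 ratio of 0.04 (95% interval -0.05 to 0.13), and 2515 against 2281 in IHG. Of their members, 4 of 35 (background 4.61%) and 3 of 39 (background 3.14%) were called higher. The adult B cells classed as cycling held little of the proliferation gene Mki67, at 14.5 CPM against 1.86 in non-cycling Ctrl cells, where cycling fetal Ctrl B cells had 331 and cycling adult Ctrl T cells 169. They did hold the replication clamp gene Pcna at 284 against 86.2 CPM.

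Cycling fetal cells were also deeper. Their median UMIs were 4811 against 2220 in Ctrl B cells, 7254 against 3025 in IHG B cells, 11552 against 6389 in Ctrl neutrophils and 12981 against 6884 in IHG neutrophils. In adult T cells depth went the other way, at 2791 against 2937 in Ctrl and 2434 against 2937 in IHG, with summed contrasts of 2.35 and 2.58. After cells were thinned to 2000 UMIs and classed anew, the T cell ratios were 1.24 and 1.49, with 9 of 32 and 15 of 34 members called higher against 5.11% and 4.10% of all genes. The neutrophil ratios were then 2.55 and 2.56, with 19 of 23 and 27 of 30 called higher against 21.3% and 18.2% of all genes. The contrast in T cells was thus smaller after thinning, and fewer of its members were called. Thinning also left out cells under 2000 UMIs, which were 25.9% of the adult Ctrl and 38.1% of the adult IHG cells. Equal depth, the loss of these cells and the new cycle classes were not separated. The part of depth in the contrasts was not tested beyond this.

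**Figure D2:**
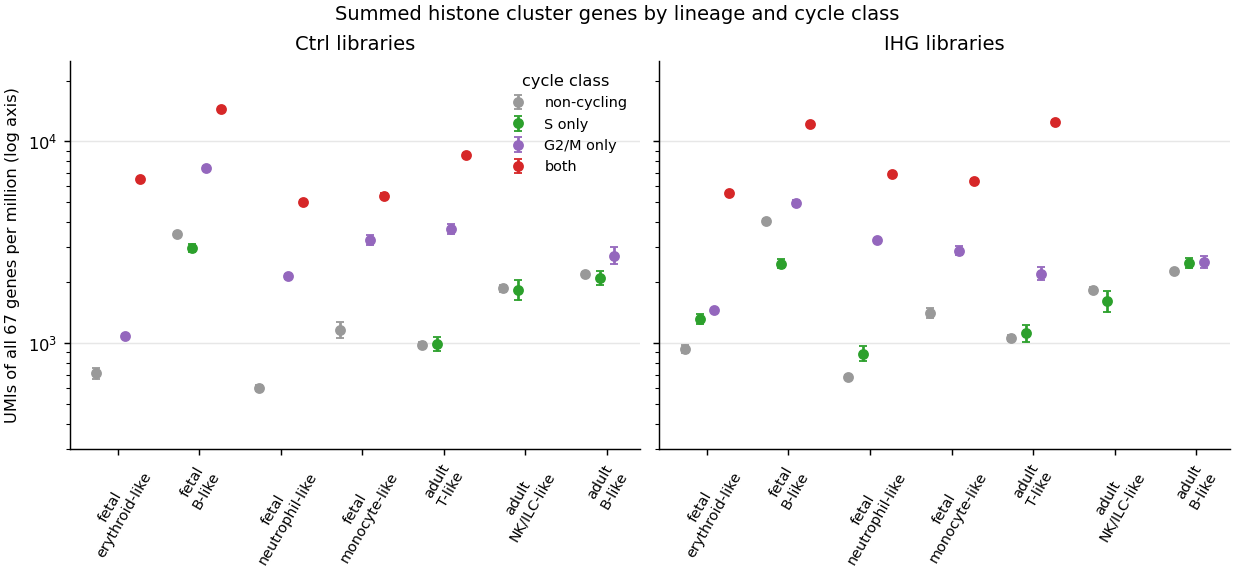
Summed CPM of the 67 members in each cell class, split into cells non-cycling, high for the S list only, for the G2/M list only or for both, in Ctrl and IHG libraries, with 95% Poisson intervals. Cells high for both lists stand highest in fetal B cells (14393 in Ctrl) and in adult T cells (8547 in Ctrl, 12471 in IHG), and adult B cells stay between 2105 and 2719 in all classes.

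Cells high for the S list only were not the ones with most histone mRNA. In fetal Ctrl B cells the members made 2964 CPM in cells high for the S list only, 7378 in cells high for the G2/M list only, and 14393 in cells high for both, with 3483 in non-cycling cells. In adult Ctrl T cells the same 4 levels were 993, 3696, 8547 and 978. Cells high for S genes alone thus sat near the non-cycling level in both. In fetal IHG neutrophils they made 887 against 3239 in cells high for the G2/M list only, 6934 in cells high for both and 678 in non-cycling cells. The sum was lower in S-only than in G2/M-only cells in 10 of 10 pairs that had 30 cells in each, with log2 ratios from -1.90 in adult Ctrl T cells to -0.02 (95% interval -0.15 to 0.12) in adult IHG B cells. The sign turned under some other settings in adult B cells and in fetal IHG erythroid cells. In fetal IHG erythroid cells the ratio was -0.14, where the median of all genes was 3.12, so that value is far below the other genes of the same cells. In adult Ctrl T cells Hist1h2ap was at 28.6 CPM in S-only cells and 574 in G2/M-only cells, a log2 ratio of -4.33 (95% interval -5.16 to -3.59), and Hist1h2ae had a ratio of -3.82. The highest of the members with 50 UMIs there was Hist1h1c, at -0.51. The S list holds genes that are also expressed before replication starts, and its cells were classed from few UMIs, so S-only is a class of these lists and not a measured phase.

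The contrast differed widely between histone types. H2A had the largest or the second largest ratio in these classes: its summed log2 ratio of cycling over non-cycling was 3.14 in fetal Ctrl B cells, 4.24 in Ctrl erythroid cells, 3.76 in Ctrl neutrophils and 4.01 in adult Ctrl T cells. H3 had 1.99, 3.35, 3.82 and 1.98 in the same classes. H4 had 1.73, 2.70, 2.40 and 1.10, and H2B had 1.08, 2.24, 1.89 and 2.19. H1 had 1.01, 1.46, 1.55 and 1.94. The IHG libraries gave 2.31, 4.12, 4.31 and 4.10 for H2A and 1.03, 1.97, 2.35 and 2.17 for H1, so H2A was above H1 in these 8 pairs.

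Single members ranged from much higher in cycling cells to nearly flat, and Hist1h2ap and Hist1h1b were among the former. Hist1h2ap was at 4153 CPM in cycling and 291.9 in non-cycling fetal Ctrl B cells, a log2 ratio of 3.83 (95% interval 3.70 to 3.96). In adult Ctrl T cells Hist1h2ap was at 938.2 against 26.75, a ratio of 5.13. It was called higher in 14 of 16 pairs, and the other 2 were the adult B cells, with ratios of 0.24 and 0.38. Hist1h1b was at 993.6 against 84.82 in fetal Ctrl B cells (3.55), at 278.3 against 9.636 in fetal Ctrl neutrophils (4.85) and at 604.5 against 15.13 in adult Ctrl T cells (5.32). It too was called in 14 of 16, with adult B cells again the exception, at -0.83 and 0.47. Hist1h2ae was called in 14 of 16 with a median log2 ratio of 3.67.

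Several H3 and H2A genes of low level were almost not seen outside cycling cells. Hist1h3b had 1044 UMIs in cycling and 3 in non-cycling fetal Ctrl B cells, a log2 ratio of 5.68 (95% interval 4.13 to 7.96). Hist1h3c had 852 against 1 UMI in the same cells, 6.97 (95% interval 4.49 to 12.27). Each of these 2 was called higher in 10 of 10 pairs in which it was tested, as were Hist1h2ab, Hist1h3g and Hist1h2bk. Hist1h2af was called in 9 of 9. Members that are tested only because they are high in cycling cells had to differ, so these full counts describe the members and do not rank them.

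At the other end stood genes whose mRNA was as high in non-cycling cells. Hist1h1c had a median log2 ratio of 0.03 over 16 pairs, from -0.94 to 1.41, and was called higher in 1. It was lower in cycling than in non-cycling fetal B cells, at 274.8 against 459.8 CPM in Ctrl (log2 ratio -0.74, 95% interval -0.86 to -0.63) and 238.5 against 458.6 in IHG (-0.94). In adult Ctrl T cells Hist1h1c was at 205.0 against 197.8. Hist1h1e and Hist1h2bc lay between, with medians of 0.76 and 0.74 and calls in 7 of 16 pairs each. Hist1h2bc was at 930.3 against 679.1 in fetal Ctrl B cells (0.45) but at 677.2 against 144.0 in adult Ctrl T cells (2.23). Hist1h1e was at 778.6 against 575.6 in fetal Ctrl B cells (0.44) and at 261.6 against 74.85 in adult Ctrl T cells (1.81). For both genes the T cell contrast was the wider one. Hist3h2a was called in 2 of 15 pairs, Hist1h4n in 3 of 12, Hist1h4c in 4 of 14, Hist3h2ba in 5 of 13 and Hist4h4 in 5 of 14.

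**Figure D3:**
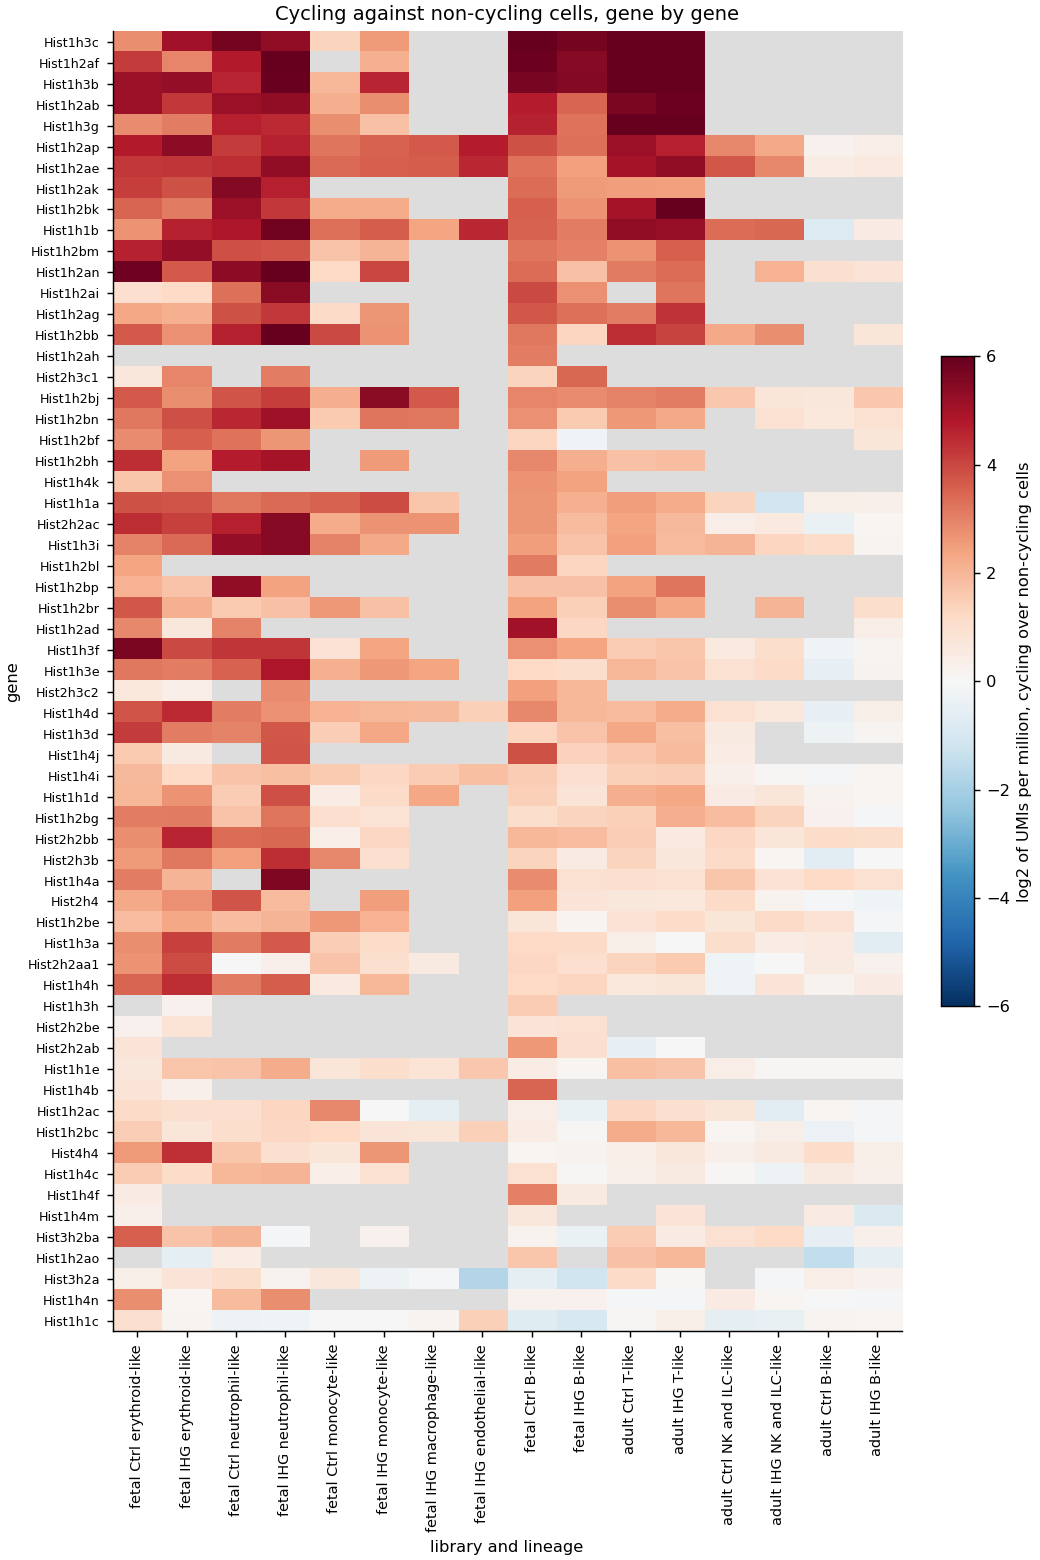
Log2 ratio of cycling over non-cycling cells for the 62 members with a value (one line each, ordered by median) in the 16 pairs of library and cell class (columns), with colour full at ratios of 6 and -6, and grey where a member had under 20 UMIs or a bound gave no direction. Hist1h3c, Hist1h2af and Hist1h3b stand at one end with medians of 5.54, 5.47 and 5.39, Hist1h1c at the other with 0.03, and the adult B columns are pale throughout.

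The annotated end of the transcript went with the size of this contrast. For this, each member's median was taken over the 8 pairs of fetal erythroid cells, B cells and neutrophils and adult T cells, Ctrl and IHG, so it differs from the medians over 16 pairs above. Members whose annotated transcript ended within 100 bases after the stem-loop (22 genes, 18 with values in at least 4 of these pairs) had a median log2 ratio of 3.19. Members annotated to run past that point (22 genes, 21 with values) had 1.93, and those with no stem-loop match (23 genes, 17 with values) had 2.75. These classes held 36.0%, 37.3% and 26.7% of the member UMIs. Members with a run of 8 or more A had a median of 1.67, and those without had 2.63. The ranges overlapped, from 0.26 to 5.76 for genes that end at the stem-loop and from -0.09 to 4.36 for those that run past it. This is a description of the members, made after their ratios were known. It was not tested whether longer, polyadenylated forms account for the difference, and histone types and copy number differ between the classes.

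**Figure D4:**
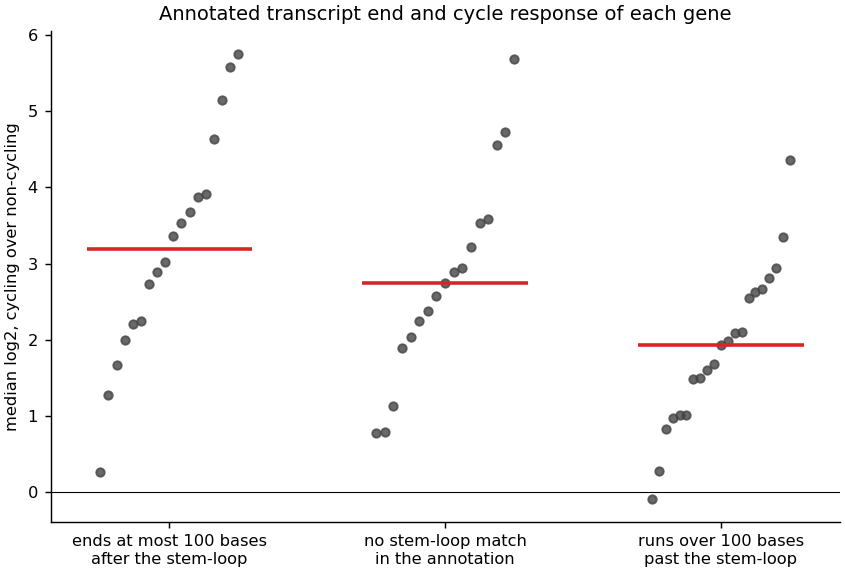
Median log2 ratio of cycling over non-cycling cells of each member (points) over the 8 pairs named above, by whether its annotated transcript ends at the stem-loop, runs past it or has no match, with the class median as a red line. The medians are 3.19, 1.93 and 2.75, and the ranges overlap.

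Non-cycling cells still differed by class. The members made 3483 and 4033 CPM in non-cycling fetal Ctrl and IHG B cells, 2197 and 2281 in adult B cells, and 1871 and 1839 in adult NK and innate lymphoid cells. They made 978 and 1063 in adult T cells, 836 and 861 in dendritic cells and 776 and 883 in monocytes. The lowest levels were in stellate cells and fibroblasts (306 and 323), cholangiocytes (359 and 635) and fetal endothelial cells (580 and 291). Between IHG and Ctrl the last 2 differed most, with log2 ratios of 0.82 and -0.99. The leading gene in most non-cycling classes was Hist1h2bc or Hist1h1c. Hist1h2bc made 42.1% of the member UMIs in adult neutrophils of either group, and Hist1h1c made 23.3% and 36.6% in non-cycling fetal Ctrl and IHG neutrophils.

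The comparison the study was built on is IHG against Ctrl within an age. In cycling cells of the fetal liver the linker histone mRNAs were higher in the IHG library in 5 of 5 cell classes, while H2A, H2B and H3 were each lower in 4 and H4 in 3. H1 summed to 4303 CPM in IHG against 2504 in Ctrl B cells, a log2 ratio of 0.78 (95% interval 0.76 to 0.81). It summed to 1958 against 722 in neutrophils (1.44) and to 2221 against 844 in monocytes (1.40). In erythroid cells H1 was at 1340 against 837 (0.68) and in myeloid progenitors at 893.5 against 491.9 (0.86). The H1 ratios were above the median of all genes, which was 0.18, 0.14, 0.23 and 0.40 in B cells, neutrophils, monocytes and myeloid progenitors, but not in erythroid cells, where it was 0.72. Over the other settings that kept every copy the H1 ratio ranged from 0.02 to 0.70 in erythroid cells and from 0.50 to 1.73 in the other 4 classes.

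Hist1h1b was the gene behind the largest part of this difference. It was at 2246 CPM in IHG against 993.6 in Ctrl cycling B cells, a log2 ratio of 1.18 (95% interval 1.14 to 1.21). In neutrophils Hist1h1b was at 1138 against 278.3 (2.03) and in monocytes at 1293 against 314.4 (2.04). It was at 623.8 against 286.2 in erythroid cells (1.12) and at 586.4 against 231.0 in myeloid progenitors (1.34). Thus Hist1h1b was called higher in all 5 classes and was the highest of the members with 50 UMIs in 4 of them. Without Hist1h1b, the other linker histone genes still summed to log2 ratios of 0.45, 0.89, 0.81, 0.38 and 0.23 in B cells, neutrophils, monocytes, erythroid cells and myeloid progenitors. Hist1h1e, next in level, had ratios of 0.66, 1.10, 0.99, 0.35 and 0.72 in the same order. Hist1h1c had -0.20 in B cells and 0.87 in neutrophils, and Hist1h1a had 1.23 in monocytes and -0.67 in neutrophils. Hist1h1d had 0.40 in B cells and -1.10 in myeloid progenitors, so not all linker histone genes followed Hist1h1b.

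The core histones went the other way in fetal cycling B cells. H2A summed to 3861 CPM in IHG against 6580 in Ctrl (log2 ratio -0.77, 95% interval -0.79 to -0.75), H2B to 1065 against 2025 (-0.93), H3 to 515 against 728 (-0.50) and H4 to 805 against 1175 (-0.55). Of 63 members tested, 23 were called lower (background 4.32%) and 1 higher (background 4.03%), and the median was -0.78. The sum over all 67 was at -0.30. It was at 0.02 with doublets kept, but there the class held other cells. A cluster of 1341 Ctrl and 345 IHG cells that scored highest for B markers then stayed unnamed and was left out. The lower ones were spread over the core types: 9 of 13 H4, 7 of 16 H2B, 5 of 16 H2A and 2 of 12 H3 genes. By sign alone, 15 of 16 H2A, 16 of 16 H2B, 11 of 12 H3 and 13 of 13 H4 genes were below Ctrl, and 5 of 6 H1 genes were above it. The share of all genes by sign was not counted, but the median of all genes given above for these cells was positive. Hist1h2ap was at 2239 against 4153 CPM (-0.89, 95% interval -0.92 to -0.86) and Hist1h2bc at 440.7 against 930.3 (-1.08). The lowest was the H4 gene Hist1h4n at -2.22, from 22 against 198 UMIs, followed by Hist1h4m at -1.98. In non-cycling fetal B cells H1 was again higher in IHG (log2 ratio 0.76), while H2A was not lower (0.06, 95% interval -0.06 to 0.18).

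The 4 clusters of the fetal B class held unequal shares of its cycling cells in the 2 libraries. Cluster 4 held 45.2% of the 1683 Ctrl cells and 30.1% of the 618 IHG cells, and cluster 8 held 16.2% and 33.8%. Cluster 6 held 308 Ctrl and 93 IHG cells, and cluster 14 held 341 and 130. Within clusters 4, 6, 8 and 14 the log2 ratios of H1 were 0.89, 0.39, 0.89 and 1.11, and those of H2A were -0.60, -1.68, -0.77 and -0.40. H2B was at -0.76, -0.62, -0.90 and -0.90. H1 was thus higher and H2A and H2B lower in IHG within each of the 4 clusters, as were the sums over the class. Hist1h2ap was at -0.73, -2.18, -0.95 and -0.42. Hist1h1b was at 1.24, 0.05, 1.30 and 1.62, so it was level in cluster 6.

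Haemoglobin and hepatocyte RNA also moved with this comparison. Haemoglobin took 7.85% of the UMIs of cycling fetal Ctrl B cells and 1.69% in IHG, and all 4 haemoglobin genes with 20 UMIs were called lower in IHG, with a median of -2.19 on the log2 scale. Over all cells of the 4 clusters the median share per cell was 1.07% to 1.69%, so the Ctrl sum lay above that of a typical cell. Whether this haemoglobin was free RNA or came with mixed cells was not tested. A list of 10 hepatocyte transcripts, read as free RNA, summed to 89.4 CPM in Ctrl and 177 in IHG, and 5 of the 9 measured were called higher. Other genes of replication were nearly level, with a median log2 ratio of 0.07. The part of any of these in the histone values was not tested.

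Erythroid cells gave a pattern that depended on how the totals were set. There the members' median was -0.55 where all genes had 0.72, with 11 of 62 members called lower (background 0.862%) and 3 higher (background 32.0%). On the total without haemoglobin, mitochondrial and ribosomal protein genes the counts were 29 lower and 0 higher, where 2.09% and 16.5% of all genes were called, and with size factors from the median of ratios 36 lower and 0 higher, where 4.08% and 9.54% of all genes were called. H2A summed to a log2 ratio of -0.66 and H3 to -0.42, while H2B was at 0.19. Below Ctrl were 14 of 16 H2A, 13 of 16 H2B, 9 of 12 H3 and 12 of 13 H4 genes. Hist1h2bc, at 565.8 against 333.0 CPM (0.76), held up the H2B sum. The lowest members were Hist1h2ao at -1.90 and Hist2h3b at -1.70, and Hist3h2ba, at 1.03, was the highest after Hist1h1b. Within erythroid clusters the ratio of Hist1h1b was 1.28 and 1.07 in the 2 with median haemoglobin shares of 24.9% and 0.79%, 0.22 in the one with 58.6%, and -0.13 to -0.25 in the 3 with 78.6% to 86.6%. The one with 0.79% held 22.2% of the cycling IHG cells and 5.88% of the cycling Ctrl cells. There H2A was at -1.43, and in the other 5 between -0.55 and -0.33. H1 was above 0 in all 6, at 0.11 to 0.96, while H2B was at -0.26 in that cluster and 0.49 to 1.43 in the others. Set against the median of all genes, H1 was at 0.96 against 0.04 in the cluster with 24.9% haemoglobin. It was at 0.88 against 0.14 in the one with 0.79% and at 0.36 against 0.08 in the one with 58.6%. In the one with 78.6% H1 was below that median, at 0.11 against 0.20. The medians of the clusters with more haemoglobin are not given here.

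In neutrophils, monocytes and myeloid progenitors H2B was lower in IHG as a sum, while the other core types differed less or in both directions. In neutrophils 7 of 55 members were called lower (background 7.75%) and 4 higher (background 4.66%), with a median of 0.08. In monocytes 6 of 45 were called lower (background 3.39%) and 3 higher (background 6.57%), with a median of -0.03. In myeloid progenitors 9 of 48 were called lower (background 2.06%) and 2 higher (background 16.5%), with a median of -0.09. The share called lower was above the background in monocytes and myeloid progenitors and nearer to it in neutrophils. Without haemoglobin, mitochondrial and ribosomal protein genes in the total, 12 neutrophil members were lower and 3 higher (9.59% and 2.86% of all genes), 7 and 3 in monocytes (4.06% and 5.18%), and 7 and 3 in myeloid progenitors (1.59% and 21.0%). With the median of ratios they were 10 and 3 (8.97% and 3.21%), 8 and 2 (4.85% and 4.37%), and 17 and 2 (5.25% and 8.58%). H2B summed to log2 ratios of -0.31, -0.28 and -0.64 in neutrophils, monocytes and myeloid progenitors, with 10 of 14, 9 of 13 and 10 of 13 of its genes below 0. The share of all genes below 0 was not counted, but the medians of all genes given above for these cells were positive. H2A summed to 0.14, -0.16 and -0.17, H3 to 0.37, -0.26 and -0.34, and H4 to 0.06, 0.07 and -0.14. Of the cycling neutrophils, cluster 7 held 52.5% in Ctrl and 85.9% in IHG, and cluster 20 held 37.4% and 4.61%. Cluster 20 was shallow and rich in haemoglobin, with medians of 2050.5 UMIs and 31.1% per cell, against 12547 UMIs and 0.559% in cluster 7. Erythroid markers scored next after neutrophil ones in cluster 20, and its part in the class values was not tested. The ratio of H1 was 1.68 and 0.92 within these 2 clusters and that of H2B -0.10 and -0.17, while H2A was at 0.54 and -0.57. Among members with at least 50 UMIs, the lowest in both neutrophils and monocytes was the H2B gene Hist1h2bk, at -1.95 and -1.68, and in myeloid progenitors Hist1h2bb at -2.06. In neutrophils the H3 gene Hist2h3c1 stood above Hist1h1b at 2.21, from 47 against 5 UMIs. The median log2 ratio of 4 haemoglobin genes was -3.20, -2.90 and -0.96 in the 3 classes and that of the hepatocyte transcripts 1.44, 1.51 and 1.40. Their part was not tested.

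**Figure D5:**
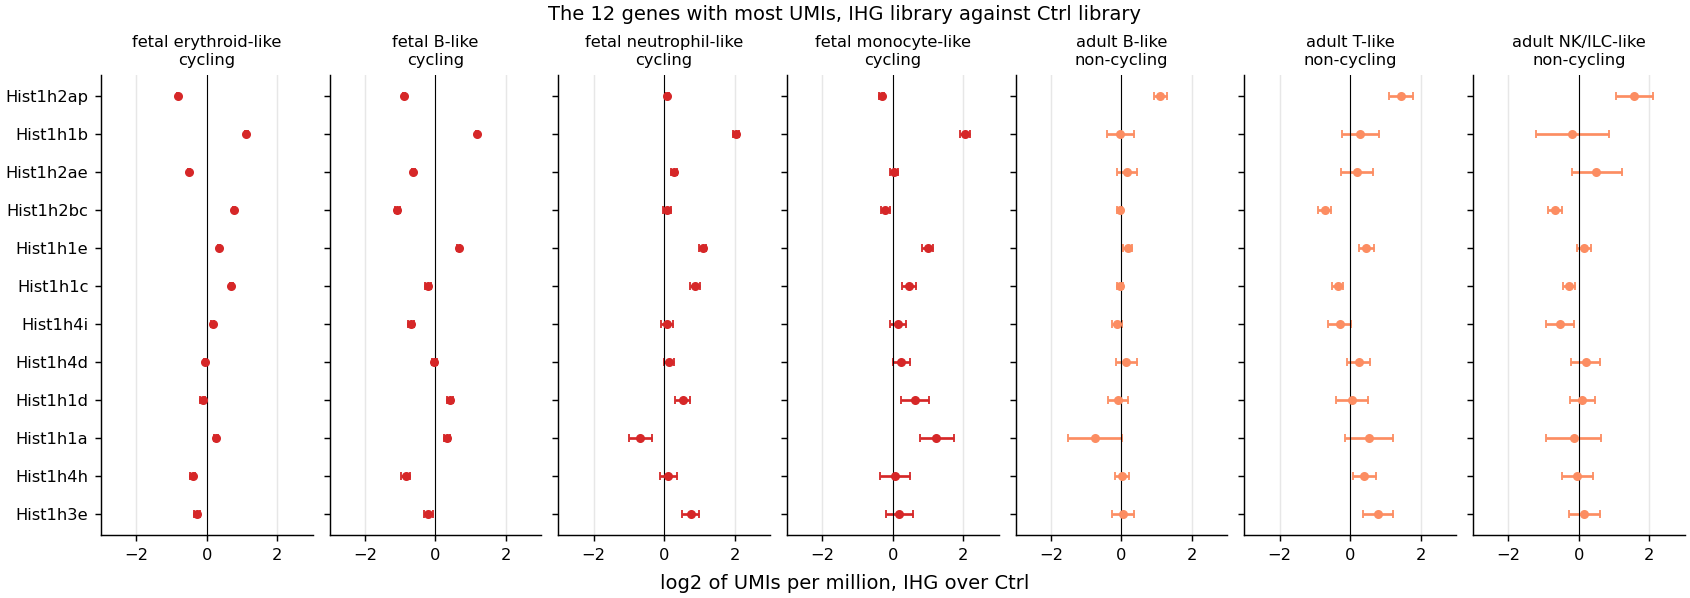
Log2 ratio of IHG over Ctrl (95% interval, counting error only) for the 12 members with the most UMIs, in cycling fetal erythroid cells, B cells, neutrophils and monocytes and in non-cycling adult B, T, and NK and innate lymphoid cells. Hist1h1b is to the right of 0 in the 4 fetal panels, at 1.12 to 2.04, and near 0 in the adult ones, where Hist1h2ap is the furthest to the right, at 1.10 to 1.56.

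In non-cycling adult B, T, and NK and innate lymphoid cells, Hist1h2ap was the member with at least 50 UMIs that differed most between IHG and Ctrl. In B cells it was at 161.9 CPM in IHG against 75.33 in Ctrl, a log2 ratio of 1.10 (95% interval 0.91 to 1.30). In T cells Hist1h2ap was at 72.61 against 26.75 (1.44) and in NK and innate lymphoid cells at 80.72 against 27.29 (1.56). It was higher in all 7 adult classes chosen for this comparison. Among these it was at 68.6 against 24.5 in monocytes (1.49) and 50.5 against 18.3 in dendritic cells (1.46). It was at 170.5 against 54.6 in endothelial cells (1.64) and 71.9 against 4.87 in cholangiocytes (3.88, 95% interval 2.85 to 5.09). Outside the 7, the 1 H2A gene with 20 UMIs in neutrophils was at 0.52. Mesothelial cells, and stellate cells and fibroblasts, had no H2A gene with 20 UMIs. In cycling T cells Hist1h2ap was at 1861 against 938.2 (0.99). Under other settings the ratio ranged from 1.07 to 1.20 in B cells, 1.19 to 1.54 in T cells and 1.41 to 1.71 in NK and innate lymphoid cells, but from 0.58 to 6.33 in cholangiocytes and 0.37 to 1.76 in endothelial cells.

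Few other members passed the 2-fold rule in the adult cells, though most lay above 0 in T cells. By sign, 27 of 45 members were higher in IHG in B cells, 34 of 42 in T cells and 24 of 36 in NK and innate lymphoid cells. The share of all genes above 0 was not counted, so these are to be read beside the medians. The members' median log2 ratios were 0.07, 0.28 and 0.17, and those of all genes -0.08, -0.04 and -0.01. In B cells 2 of 45 members were called higher (background 1.05%) and 0 lower (background 1.40%). In T cells 3 of 42 were called higher (background 1.39%) and 0 lower (background 1.59%), and in NK and innate lymphoid cells 4 of 36 higher (background 1.89%) and 0 lower (background 1.57%). The H2B gene Hist1h2br was called beside Hist1h2ap in all 3, at 1.48 (33 against 7 UMIs), 1.46 and 1.66, but with few UMIs. The others were Hist1h4m in T cells (1.34) and Hist3h2a (1.18) and Hist1h2an (1.10) in NK and innate lymphoid cells. These members under 50 UMIs are named because the counts were small, after their values were seen. Hist1h2bc was lower in IHG T cells (-0.73) and NK and innate lymphoid cells (-0.68) but level in B cells (-0.05). Hist1h1b was near level in non-cycling B, T, and NK and innate lymphoid cells, at -0.03, 0.28 and -0.18. H2A as a sum was higher in IHG by log2 ratios of 0.53, 0.66 and 0.80 in the 3 classes, and H1 was at 0.01, -0.03 and -0.09.

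B cells, present in number at both ages, allowed the fetal and adult levels to be set side by side. In cycling cells the members made 13013 CPM in fetal Ctrl against 2264 in adult Ctrl, a log2 ratio of 2.52, and 10549 against 2515 in IHG, a ratio of 2.07. In non-cycling cells the ratios were 0.66 and 0.82. H2A had the widest gap in cycling Ctrl cells, at 6580 against 282.0 (4.54), and H1, H2B, H3 and H4 had 1.52, 1.78, 2.43 and 1.61. Hist1h1b was at 993.6 against 14.51 CPM in cycling Ctrl cells (6.10) and at 2246 against 35.04 in IHG (95% interval 5.48 to 6.58). Hist1h2ap was at 4153 against 89.16 in Ctrl (5.54) and at 2239 against 210.2 in IHG (3.41). Hist1h1c alone of these was lower in the fetal cells, at 274.8 against 559.8 in Ctrl (-1.03) and with a ratio of -1.14 in IHG. The fetal and adult B classes also differed in their leading genes. Fetal cluster 8 led with Vpreb1, Igll1 and Vpreb2, and fetal cluster 6 with Iglc1, Iglc3, Ly6d and Ms4a1. Adult cluster 0 held Iglc2, Ms4a1 and Ighm among its leading genes. Age, B cell stage, depth, perfusion and the low Mki67 of the adult cells classed as cycling cannot be told apart here.

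Genes that work with these histones were read from lists that held no member and no gene of the cycle lists. Of 24 other genes of DNA replication, 20 of 24 measured were called higher in cycling fetal Ctrl B cells (background 10.1%), 22 of 23 in Ctrl neutrophils (31.8%) and 20 of 20 in adult Ctrl T cells (12.7%), but 0 of 15 in adult Ctrl B cells (4.61%). The same backgrounds hold for the lists that follow. Dut, which keeps uracil out of DNA, had log2 ratios of 3.39 in fetal Ctrl B cells and 3.10 in adult Ctrl T cells, and the ligase gene Lig1 had 4.19 and 4.05. This list thus followed the histone genes class by class, with adult B cells flat in both.

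The histone chaperones, which carry new histones to DNA, moved in part. Of 21 genes, 13 of 21 were called higher in fetal Ctrl B cells, 14 of 20 in Ctrl neutrophils, 12 of 21 in adult Ctrl T cells and 0 of 17 in adult Ctrl B cells. Asf1b, which holds H3 with H4, had ratios of 4.43 and 5.14 in fetal Ctrl B cells and adult Ctrl T cells, and Chaf1a, of the chromatin assembly factor, 3.99 and 3.77. Of the most abundant ones, Nap1l1 had 2.12 and 1.55 and Npm1 1.02 and 0.31.

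The machinery of histone mRNA itself moved less. Of 18 genes that transcribe or process histone mRNA, 3 of 17 measured were called higher in fetal Ctrl B cells, 8 of 16 in Ctrl neutrophils and 5 of 17 in adult Ctrl T cells, with the first of these counts near the background. Slbp, the stem-loop binding protein, had 1.89 in fetal Ctrl B cells and 0.65 in adult Ctrl T cells. Npat, the co-activator of these promoters, had -0.25 and 0.59, and Casp8ap2, also of the histone locus, 1.56 and 1.02. Among a list of histone variant genes that are not members, 3 of 9 were called higher in fetal Ctrl B cells and 3 of 8 in adult Ctrl T cells. H2afz had 2.53 and 2.11 and H2afx 3.29 and 2.49, while the H3 variant genes H3f3a and H3f3b, made throughout the cell cycle, had -0.25 and 0.54 and -0.47 and 0.04.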

How the data were processed

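The deposited files were raw counts of UMIs per gene and barcode from 10x Genomics 3′ libraries, made with Cell Ranger 5.0.0 per the file headers and with the mouse build mm10 per the submitters' processing notes. The aligner settings, the annotation release and the use of strand are not given in the sources used here. The 67 genes, the gene lists and the comparisons were chosen with earlier results of these data known.

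Barcodes under 300 genes or above 25% mitochondrial UMIs were dropped. Doublets were removed with Scrublet, by its automatic cut-off in fetal libraries (107 and 267 cells). In the adult libraries Scrublet marked 0% and 0.0147%, so scores above the 95th percentile were removed (244 and 286 cells). Clusters were made per age with scanpy 1.11.5 (2000 variable genes without histone, cycle and other list genes, 30 components, 15 neighbours, Leiden resolution 1) and named from marker lists, where a tie margin of 0.25 was set after the clusters were seen. Of the fetal Ctrl and IHG cells, 4.75% and 4.88% stayed unnamed. Counts were summed per library, cell class and cycle class with at least 30 cells and divided by the summed total (CPM). Ratios carry exact conditional Poisson intervals (scipy 1.17.1). A group at 0 was set to a floor of 3 UMIs over the group, and a bound that gave no direction was not called. UMIs and cells of 1 library are not replicates, so no test was run. The code was tested on simulated data. Named members are the 12 with the most UMIs, and in each comparison the 2 highest and 2 lowest with at least 50 UMIs. Alternatives were other scalings, thinning to 2000 UMIs, other cycle thresholds, filters, doublets kept, a coarser clustering and sums without the top copy.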

Additional observations from a re-analysis of the deposited data

Results flagged for a closer look

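Of 39 pairs of ratios that could be set side by side between fetal and adult cells, 4 had opposite signs with counting intervals that did not reach 0. The pairs are of the 12 members with the most UMIs. The share of all genes with opposite signs by this rule was not counted, so the count shows nothing particular to the members. The difference between the ages was not tested, as each ratio rests on 1 library per group, and age, depth and dissociation cannot be told apart. Hist1h2ap in cycling B cells was lower in fetal IHG (log2 ratio to Ctrl -0.89, 2239 against 4153 CPM) and higher in adult IHG (1.24, 210.2 against 89.16 CPM). Hist1h2ap in non-cycling B cells was at -0.37 in the fetal pair (225.4 against 291.9 CPM) and 1.10 in the adult pair (161.9 against 75.33 CPM). In non-cycling monocytes Hist1h2ap was at -0.65 in the fetal pair (103.5 against 162.8 CPM) and 1.49 in the adult pair (68.6 against 24.5 CPM). Hist1h2bc in non-cycling endothelial cells was at -1.02 in the fetal pair (53.5 against 108.8 CPM) and 0.54 in the adult pair (590.6 against 406.8 CPM).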

How the results depend on the processing

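No paired analysis was possible because each group has 1 library. The sum over all members was above 0 in cycling cells under every setting tried, except in adult Ctrl B cells, where it fell below 0 with either other scaling, after thinning to 2000 UMIs and at a cycle threshold of 5 per 10000. S-only cells were below G2/M-only cells in 10 of 10 pairs, and exceptions under other settings were adult B cells and fetal IHG erythroid cells. Fetal H1 in 5 of 5 classes and fetal over adult B cells in 4 of 4 kept their sign under all settings. So did adult Hist1h2ap in each of the classes chosen for it that had enough cells (5 to 7). Over all single values the sign was kept in 190 of 214 with the median of ratios, 192 of 214 on the total without haemoglobin, mitochondrial and ribosomal protein genes, and 190 of 213 after thinning. After thinning, 19 members were called higher in cycling fetal Ctrl neutrophils, 27 in IHG neutrophils, 9 in adult Ctrl T cells and 15 in adult IHG T cells, with fewer members to test by construction (23, 30, 32 and 34). The share of the tested members called in adult T cells fell as well, from 40 of 49 in Ctrl and 36 of 51 in IHG, and so did that of all genes, to 5.11% and 4.10%. In fetal IHG erythroid cells the cycling over non-cycling ratio of H2B was 1.17, below the median of all genes given above for these cells. It turned to -0.16 without haemoglobin, mitochondrial and ribosomal protein genes in the total and to -0.31 with the median of ratios. The medians of all genes were then 0.79 and 0.66, and the cause was not tested. Hist1h1b turned within 3 fetal erythroid clusters, to -0.25, -0.13 and -0.17, an alternative added after the data were seen. Within single clusters H1 kept its sign in fetal B cells, erythroid cells and neutrophils. The monocyte and myeloid progenitor classes were 1 cluster each, so there the value within the cluster is that of the class. The counts of members lower in fetal IHG ranged over settings from 16 to 39 in B cells and 9 to 36 in erythroid cells. They ranged from 4 to 16 in neutrophils, 0 to 13 in monocytes and 3 to 17 in myeloid progenitors. A lower fold and a lower UMI minimum were among these settings, so the counts do not share 1 rule or 1 background. After thinning, 37 of 62 members were lower in B cells (background 3.82%) and 9 of 56 in erythroid cells (0.670%). There, 4 of 34 were lower in neutrophils (5.40%), 0 of 20 in monocytes (2.93%) and 3 of 18 in myeloid progenitors (2.51%). The sum over all members in fetal B cells moved from -0.30 to 0.02 with doublets kept, where the class also held other cells. There a cluster of 1341 Ctrl and 345 IHG cells that scored highest for B markers stayed unnamed and was left out. Under the stricter cell filter the same held for clusters of 892 Ctrl and 372 IHG cells and of 383 Ctrl and 6 IHG cells. The part of doublets and that of class membership were not separated. Members with few UMIs are limited by depth, most of all in the adult libraries.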

Other observations

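On chromosome 13 (GRCm38) Hist1h2ap (21833026 to 21833507, minus strand) and the H2B gene Hist1h2br (21833743 to 21837530, plus strand) stand head to head with 235 bases between them, and these neighbours were looked at after their values were seen. The log2 ratios of IHG over Ctrl for Hist1h2br were -1.79 in cycling fetal B cells (140 against 937 UMIs), -1.51 in erythroid cells, -1.38 in monocytes, -1.39 in myeloid progenitors and -1.23 in neutrophils. In the adult libraries they were 1.48 in non-cycling B cells, 1.46 in T cells and 1.66 in NK and innate lymphoid cells, and 1.03 in cycling T cells (44 against 27 UMIs). Hist1h2br was thus lower in IHG in all 5 fetal classes and higher in all 4 adult ones, where Hist1h2ap was lower in 4 of 5 fetal classes (0.08 in neutrophils) and higher in the same adult ones. The median of the members outside this stretch was -0.68 in fetal B cells, -0.40 in erythroid cells and between -0.08 and 0.09 in the other fetal classes, and 0.06 to 0.27 in the adult ones.

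The next gene, Hist1h4n (21831767 to 21832196, minus strand), was at -2.22, -1.44, -1.15 and -2.31 in fetal B cells, erythroid cells, neutrophils and myeloid progenitors, from 13 to 221 UMIs per group, and at 0.14 to 0.40 in the adult classes. Hist1h2ao, Hist1h4m and Hist1h2bq lie further along the same stretch, from 21806612 to 21812147. Hist1h2ao was at -1.61 in fetal B cells and -1.90 in erythroid cells, and between -0.76 and -0.15 in the adult classes with a value. Only 0.137% of the 90-base stretches of Hist1h2br and 7.63% of those of Hist1h2ap are found in no other gene, so how shared reads were assigned bears on all of these values, and it was not tested.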
